A study of Mus musculus with 28 samples.

Results

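The renal receivers of the mineral hormones were followed as 8 genes, taken by symbol from the kidney count table of 30227 genes and, for comparison, from the duodenum table of 31179 genes. They are the parathyroid hormone receptor Pth1r, the klotho coreceptors Kl and Klb, the fibroblast growth factor (FGF) receptors Fgfr1, Fgfr2, Fgfr3 and Fgfr4, and the calcium-sensing receptor Casr. Each of the 8 had a row in both tables. In kidney cortex 7 of the 8 passed the filter on low counts, and Klb, without a single read, did not. In duodenum 4 passed (Pth1r, Fgfr1, Fgfr2 and Fgfr3).

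As background, the proximal tubule reads parathyroid hormone through the Gs- and Gq-coupled receptor PTH1R, and FGF23, a hormone from bone, through an FGF receptor held in complex with α-klotho, the product of Kl. Both hormones take phosphate transporters off the brush border, while PTH promotes and FGF23 restrains the making of active vitamin D. The calcium-sensing receptor of the thick ascending limb lowers calcium reabsorption when blood calcium is high. β-klotho, the product of Klb, does for the intestinal hormone FGF15 and the liver hormone FGF21 what α-klotho does for FGF23.

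The mice were 8-week-old females on a diet enriched in calcium, phosphate and lactose (TD.96348), which all groups received. WT mice carried the intact vitamin D receptor gene (Vdr+/+), KO mice were Vdr-/- (the file headers name the line Demay), and AF2 mice carried a receptor lacking activation function 2 (delta AF2), the surface to which coactivators bind. Each tissue, duodenum and kidney cortex, gave 6 WT, 4 KO and 4 AF2 libraries of 3' ends, 28 in all. The design asks how the loss of the receptor and the loss of its coactivator surface differ in mineral homeostasis. Alleles are given without a tissue restriction, the strain background is not stated, and nothing says that each library came from its own mouse, so p-values measure the spread between libraries.

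Kidney libraries held 3725648 to 6492228 counts and duodenum libraries 3713352 to 25181916, with 2 counts for each read. Values are given as CPM, the counts scaled to a common library size by the TMM method. A 3' library yields about one read position per transcript, so CPM were not divided by gene length and stand as levels between genes too. Vdr lay at 177 to 212 CPM in WT kidney, 7.94 to 22.1 in KO and 64.8 to 91.9 in AF2. In duodenum it lay at 267 to 646, 97.3 to 120.2 and 362 to 432. The deleted parts are not given in the labels, so the reads left in KO may come from outside them. All 10 proximal tubule and all 7 thick ascending limb markers were read in kidney. The summed immune markers were 882 CPM in kidney WT 1 and 101 to 199.6 in the other libraries of that tissue, most of it from Cd74 (701 CPM in WT 1). Podocyte marker sums were 361 to 463 CPM in AF2, 289 to 316 in KO and 233 to 302 in WT. Kidney AF2 4 had the lowest sum of outer stripe proximal tubule markers, 121 CPM, beside 185 to 380.4 in the others. Of 4 such markers tested between AF2 and WT, 1 was called higher and 1 lower, so the sum does not speak for each marker. Summed exocrine pancreas markers ran from 37.1 to 13445 CPM among duodenum libraries. By the runs of consecutive numbers in the library codes, WT 1 and WT 2 form the first run, WT 3 and WT 4 the second with all KO, and WT 5 and WT 6 the third with all AF2, in both tissues. The labels do not say that these runs are batches.

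The 8 genes lie apart in the mouse genome (GRCm38, the build mm10, RefSeq positions). Pth1r is on chromosome 9 from 110722085 to 110747145, Fgfr1 on chromosome 8 from 25518759 to 25575718, and Fgfr2 on chromosome 7 from 130162451 to 130266808. Chromosome 5 holds Fgfr3 (33721724 to 33737068), Klb (65348411 to 65386957) and Kl (150952607 to 150993817). Fgfr4 is on chromosome 13 from 55152818 to 55168759 and Casr on chromosome 16 from 36490585 to 36562141. In GENCODE vM21 the 5′ part of Pth1r overlaps Myl3 on the opposite strand. Myl3 had 11 reads over the 14 kidney libraries beside 20505 of Pth1r. The Fgfr2 model of that annotation reaches to 133123350 across many other genes, and how such reads were counted is not stated in the labels or headers.

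The stretches before the starts of the 2 most abundant members, Kl and Pth1r, are shown because the receptor altered in these mice binds DNA. It sits on paired hexamers. The single hexamers searched, on both strands, were AGGTCA (the consensus), AGTTCA (a second form), GGGTCA (a near match) and GGTTCA (another near match). The windows are the 250 bases before the start (RefSeq, GRCm38.p6), Kl at chr5:150952357-150952606 on the plus strand and Pth1r, the most upstream of its 3 starts, at chr9:110747146-110747395 on the minus strand. Capitals mark a hexamer, here GGGTCA on the reverse strand.
Kl: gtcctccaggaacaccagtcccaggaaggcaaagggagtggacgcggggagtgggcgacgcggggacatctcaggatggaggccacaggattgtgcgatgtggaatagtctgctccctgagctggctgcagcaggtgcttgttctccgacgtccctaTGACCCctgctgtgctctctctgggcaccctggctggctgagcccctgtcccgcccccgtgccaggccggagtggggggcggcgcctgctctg
Pth1r: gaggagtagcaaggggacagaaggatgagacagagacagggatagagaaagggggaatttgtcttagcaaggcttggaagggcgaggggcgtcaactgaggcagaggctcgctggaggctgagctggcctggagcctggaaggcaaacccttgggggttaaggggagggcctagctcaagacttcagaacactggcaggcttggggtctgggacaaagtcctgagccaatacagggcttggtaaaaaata
The Kl window holds 1 hexamer, from 93 to 88 bases before the start, and none of the 3 Pth1r windows holds any. Windows were on hand for 7 of the 8 members (not Fgfr1). Klb, Fgfr2 and 1 of 2 Fgfr3 windows held a hexamer each, and those of Fgfr4 and Casr held none. Of all 32851 windows of this length 38.641% held one. A pair of hexamers in direct repeat spaced by 3 bases was in 0 of the members' windows and in 13 of all windows (0.04%). These are matches of letters in a short window and say nothing of binding.

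In kidney cortex no member changed with genotype past the threshold, an adjusted p under 0.05 over 13502 genes in edgeR's quasi-likelihood test. Between KO and WT 0 of 7 tested members were called, where 0.844% of all genes were. Between AF2 and WT it was 0 of 7 beside 2.71%, and between AF2 and KO 0 of 7 beside 0.333%. At an unadjusted p under 0.05 there was 1 of 7 in each comparison (Pth1r, Fgfr4 and Fgfr3 in turn), beside 10.5%, 14.5% and 11.5% of all genes. The median log2 fold change of the 7 was 0.01 for KO and 0.02 for AF2 against WT, beside medians of 0.00 over all genes. In each comparison 3 members were lower and 4 higher. The 95% interval of the fold change stayed within 2-fold either way for 7 of 7 members between KO and WT (74.8% of all genes). For 6 of 7 it did so between AF2 and WT (72.4% of all genes) and between AF2 and KO (70.4%). The comparisons share libraries, so their values are given side by side only.

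**Figure D1:**
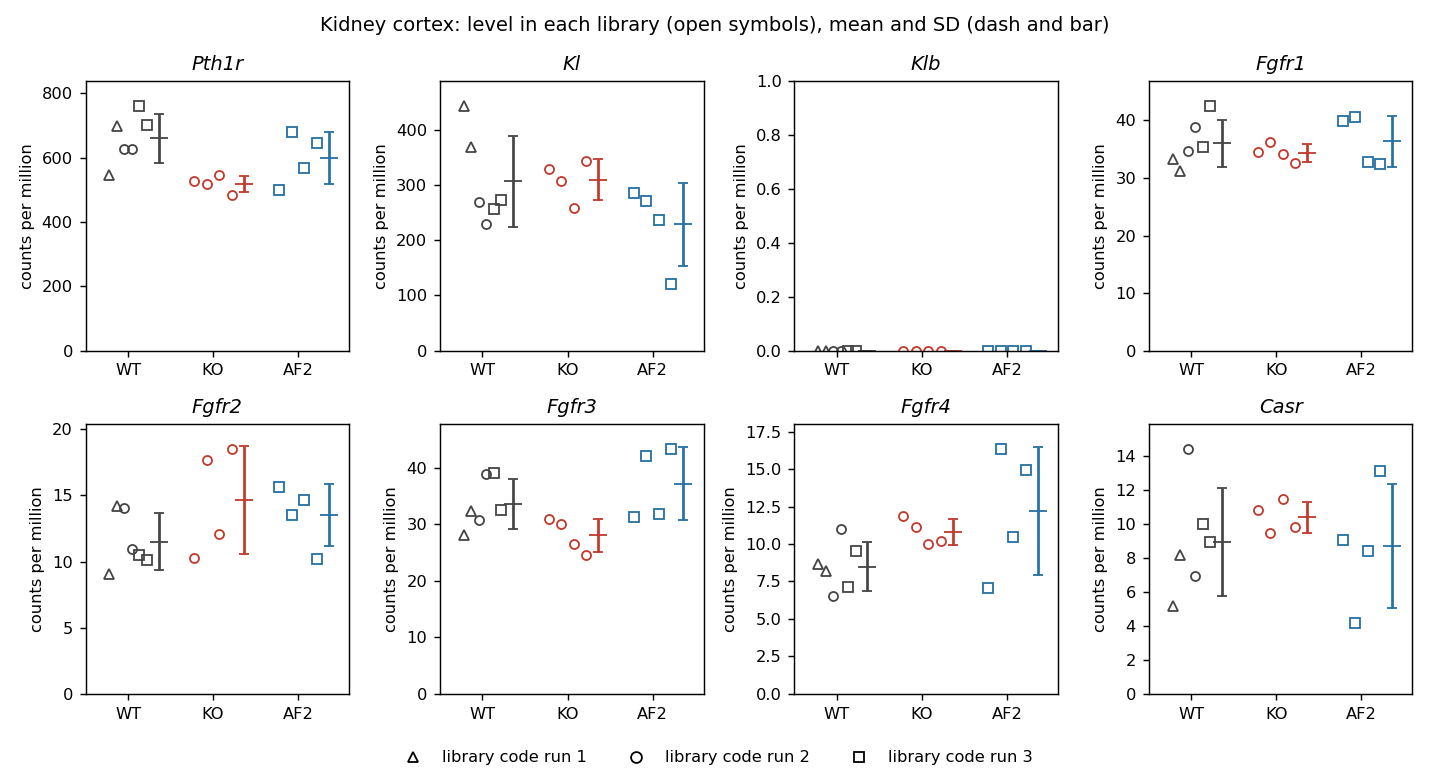
Level of each of the 8 genes in every kidney cortex library, in CPM on an axis from 0, by genotype (6 WT, 4 KO, 4 AF2); symbols show the run of library codes, and the dash with bar gives the mean and SD. Pth1r is the only panel in which all 4 KO libraries (484 to 545.0) sit below all 6 WT libraries (545.8 to 762), and Klb is at 0 throughout.

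**Figure D2:**
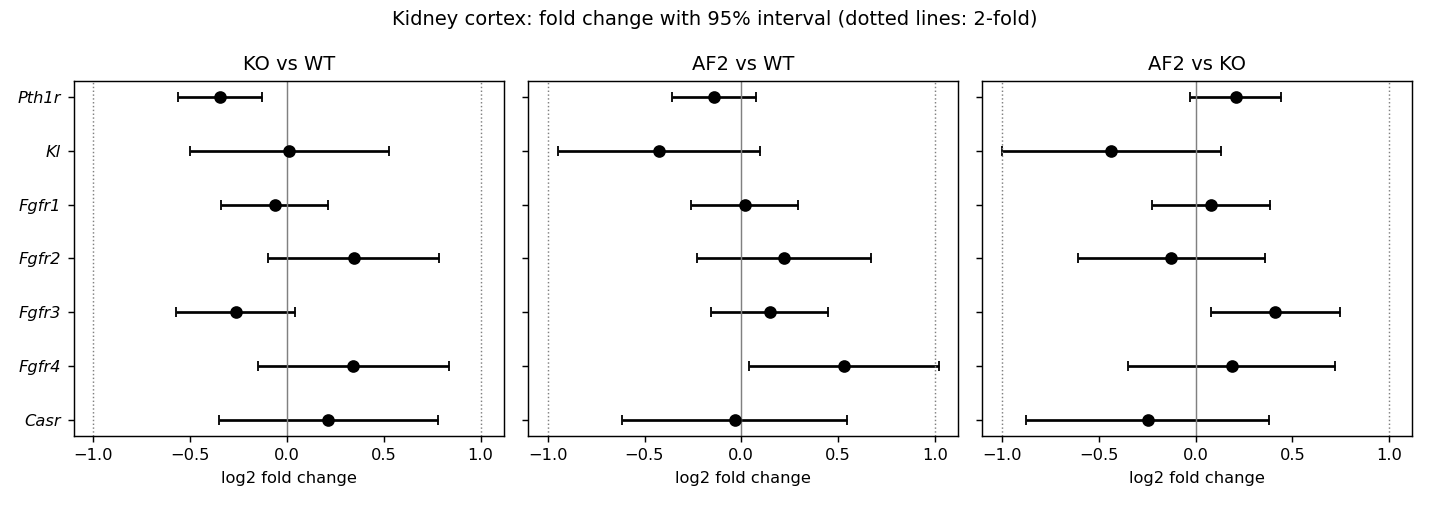
Log2 fold change with its 95% interval (edgeR) for the 7 genes tested in kidney cortex, one panel per pair of genotypes. The intervals that leave out 0 are those of Pth1r in the first panel, Fgfr4 in the second and Fgfr3 in the third, and none of these had an adjusted p under 0.05.

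Pth1r, the receptor that the proximal tubule uses for parathyroid hormone, was the most abundant of the 8 genes in kidney. WT libraries ranged from 545.8 to 762 CPM with a median of 662. KO libraries stood at 528, 518, 545.0 and 484 CPM and AF2 libraries at 500.2, 681, 567 and 646. Every KO library was below every WT library, though KO 3 and WT 1 were less than 1 CPM apart, and AF2 overlapped both. Groups that did not overlap, with KO lower, were found for 1.75% of all genes tested. The log2 fold change was -0.35 ± 0.11 (SE) between KO and WT, that is 0.786-fold (95% interval 0.677 to 0.913), with adjusted p = 0.136. Between AF2 and WT it was -0.14 ± 0.11 (adjusted p = 0.586), and between AF2 and KO 0.21 ± 0.11 (adjusted p = 0.507).

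The Pth1r difference between KO and WT came close to the threshold under several settings. Leaving out AF2 4, a library outside the comparison that adds to the shared estimate of spread, gave -0.35 with an adjusted p of 0.0485, the one of the alternatives run that called it. Without WT 1, the library rich in immune transcripts, the value was -0.40 (adjusted p = 0.0520). Within the second run of library codes the WT libraries were at 626 and 628 CPM, above all 4 KO, and within the third they were at 702 and 762, above all 4 AF2. With the run as a term the log2 fold changes were -0.27 for KO (adjusted p = 0.792) and -0.29 for AF2 (adjusted p = 0.405). Proximal tubule markers summed to 10124 to 10962 CPM in KO and 8973 to 10800 in WT. Of 10 such markers tested, 6 were lower in KO than in WT, with a median log2 fold change of -0.06, 1 was called higher and 0 were called lower. Their part in the Pth1r difference was not tested. In bulk tissue fewer cells of a type and less RNA per cell cannot be told apart.

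Kl, which makes FGF receptors responsive to FGF23, was the next most abundant. WT libraries ranged from 229 to 443 CPM (median 271), KO libraries stood at 328, 306, 258 and 343, and AF2 libraries at 286, 271, 237 and 120.6. The pair of highest values belonged to WT 1 (443) and WT 2 (368) and the lowest to AF2 4, and all 3 groups overlapped. Between KO and WT the log2 fold change was 0.01 ± 0.24 with an interval from -0.50 to 0.53 (adjusted p = 0.992), which leaves out a change of 2-fold. Between AF2 and WT it was -0.42 ± 0.24 (interval -0.95 to 0.10, adjusted p = 0.462). That difference leaned on single libraries: without AF2 4 it was -0.22 (adjusted p = 0.733) and without WT 1 it was -0.29 (adjusted p = 0.647). AF2 4 was also the library with the lowest outer stripe marker sum. Its sum of distal convoluted and connecting tubule markers was the highest in kidney, 3117 CPM beside 2105 to 2878 in the others. The part of either sum in its Kl level was not tested.

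The Kl level of WT libraries was highest in the first run of library codes, which was not tested among WT alone. WT 1 and WT 2 were at 443 and 368 CPM, WT 3 and WT 4 at 269.7 and 229, and WT 5 and WT 6 at 256 and 272. Set against the WT pair of their own run, KO libraries (mean 309) stood beside a WT mean of 249, with 1 of 4 inside the WT pair's range, and AF2 libraries (mean 229) beside 264. With the run as a term, KO against WT was 0.31 (adjusted p = 0.952) and AF2 against WT -0.21 (adjusted p = 0.847). Neither direction held against the spread, with or without the run.

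Klb, the coreceptor for FGF15 and FGF21, had 0 reads in all 14 kidney libraries. A count of 0 allows up to 0.0878 CPM over the 14 together. In duodenum it had 8 reads, 6 in WT 2, the deepest library, and 2 in WT 4, with none in any KO or AF2 library. Over all libraries the ratio of kidney to duodenum reads, scaled for depth, was at most 0.756 by its counting interval, with most of the reads from a single library. Differences between genotypes were not detectable at this depth.

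Fgfr1, a widely expressed FGF receptor able to bind FGF23 with α-klotho, had the narrowest range of the 7 genes read, relative to its level. WT libraries ranged from 31.3 to 42.6 CPM (median 35.0), KO libraries stood at 34.5, 36.2, 34.2 and 32.5, and AF2 libraries at 39.8, 40.7, 32.7 and 32.4. The 3 groups covered one range. Its log2 fold changes were -0.06 ± 0.14 for KO (adjusted p = 0.917) and 0.02 ± 0.14 for AF2 (adjusted p = 0.971) against WT.

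Fgfr3, another receptor found in the proximal tubule, was close to Fgfr1 in level. WT libraries ranged from 28.1 to 39.1 CPM (median 32.4), KO libraries stood at 30.9, 30.0, 26.6 and 24.6, and AF2 libraries at 31.3, 42.1, 31.9 and 43.4. All 4 AF2 libraries were above all 4 KO libraries, AF2 1 by less than 1 CPM, and WT overlapped both. Groups that did not overlap, with AF2 higher, were found for 3.55% of all genes tested. Between AF2 and KO the log2 fold change was 0.41 ± 0.16 (interval 0.08 to 0.75, adjusted p = 0.316). Against WT it was -0.27 ± 0.15 for KO (adjusted p = 0.566) and 0.15 ± 0.15 for AF2 (adjusted p = 0.702). AF2 and KO sit in different runs of library codes, so that comparison and the run cannot be told apart except through the WT pairs, with which it was 0.37 (adjusted p = 0.955).

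Fgfr2 and Fgfr4 were read from few fragments, 18 to 49 and 14 to 41 reads per library. Fgfr2, best known for its part in kidney development and in epithelia, ranged in WT from 9.08 to 14.2 CPM (median 10.7), with KO at 10.3, 17.7, 12.1 and 18.5 and AF2 at 15.6, 13.6, 14.7 and 10.2. KO 2 and KO 4 were the highest of all libraries, and the groups overlapped (log2 fold change 0.35 ± 0.22, adjusted p = 0.607). Fgfr4, a receptor also able to pair with α-klotho, ranged in WT from 6.50 to 10.99 CPM (median 8.41), with KO at 11.8, 11.1, 10.03 and 10.2 and AF2 at 7.06, 16.4, 10.5 and 14.9. Its log2 fold changes against WT were 0.34 ± 0.24 for KO (adjusted p = 0.670) and 0.53 ± 0.24 for AF2 (interval 0.04 to 1.02, adjusted p = 0.291). The AF2 value rested on AF2 2 and AF2 4, since without AF2 2 it was 0.35 (adjusted p = 0.573) and without AF2 4 it was 0.41 (adjusted p = 0.584).

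Casr, the calcium sensor, was the lowest of the 7 genes read, with 9 to 40 reads per library. WT libraries ranged from 5.19 to 14.4 CPM (median 8.57), KO libraries stood at 10.8, 9.47, 11.5 and 9.83, and AF2 libraries at 9.08, 4.21, 8.39 and 13.1. The KO libraries were close together inside the WT range, and AF2 spread as widely as WT. Log2 fold changes were 0.21 ± 0.28 for KO (adjusted p = 0.841) and -0.03 ± 0.28 for AF2 (adjusted p = 0.971) against WT. The interval for KO reached from -0.35 to 0.78, which spans 0.783-fold to 1.72-fold, so smaller differences were not detectable at this depth.

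By median over the 14 kidney libraries the order was Pth1r (597 CPM), Kl (272), Fgfr1 (34.6), Fgfr3 (31.6), Fgfr2 (12.8), Fgfr4 (10.1), Casr (9.27) and Klb at 0. Ranges of Pth1r and Kl did not meet (484 to 762 and 120.6 to 443), nor did those of Kl and Fgfr1. Fgfr1 and Fgfr3 shared most of their range (31.3 to 42.6 and 24.6 to 43.4), as did Fgfr2, Fgfr4 and Casr (9.08 to 18.5, 6.50 to 16.4 and 4.21 to 14.4). Genes were not tested against each other. Within KO alone Fgfr1 (32.5 to 36.2) lay above Fgfr3 (24.6 to 30.9).

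Pth1r, Fgfr1 and Fgfr3 were higher in WT kidney cortex than in WT duodenum, and Fgfr2 was lower. These 4 members passed the filter on low counts in both tissues, and all 4 were called in a joint fit of 28 libraries, where 69.9% of all genes were called and 34.3% were called higher. Kl, Casr and Fgfr4 entered that fit through their kidney counts, which fixed their direction, so they are not counted. Pth1r lay at 2.81 ± 1.41 CPM in WT duodenum (SD, n = 6) and was higher in kidney by 7.80 ± 0.29 on the log2 scale (adjusted p = 9.65e-19). Fgfr1 was higher by 2.22 ± 0.20 and Fgfr3 by 1.34 ± 0.17 (adjusted p of 7.45e-09 or less). Fgfr2 went the other way, with -0.51 ± 0.22 (adjusted p = 0.0339) and overlapping groups. That call was lost without any 1 of kidney WT 1, WT 4, WT 5 or WT 6 or duodenum WT 2 or WT 4, with adjusted p from 0.0589 to 0.126.

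For Kl, Casr and Fgfr4 the duodenum counts were too few for a test, and ratios of reads are given as a description. Kl had 3 reads in 6 WT duodenum libraries beside 4456 in WT kidney, a ratio of depth-scaled reads of 2578 with a counting interval of 882 to 12505. Casr had 3 reads, all in WT 2, beside 131, a ratio of 75.8 (25.4 to 372). Fgfr4 had 12 reads beside 123, a ratio of 17.8 (9.83 to 35.4). No Kl read was found in AF2 duodenum. The AF2 kidney level was 724-fold that of a floor of 3 reads over the group, and the counting interval began at 588-fold. Intervals and floors cover counting error only.

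**Figure D3:**
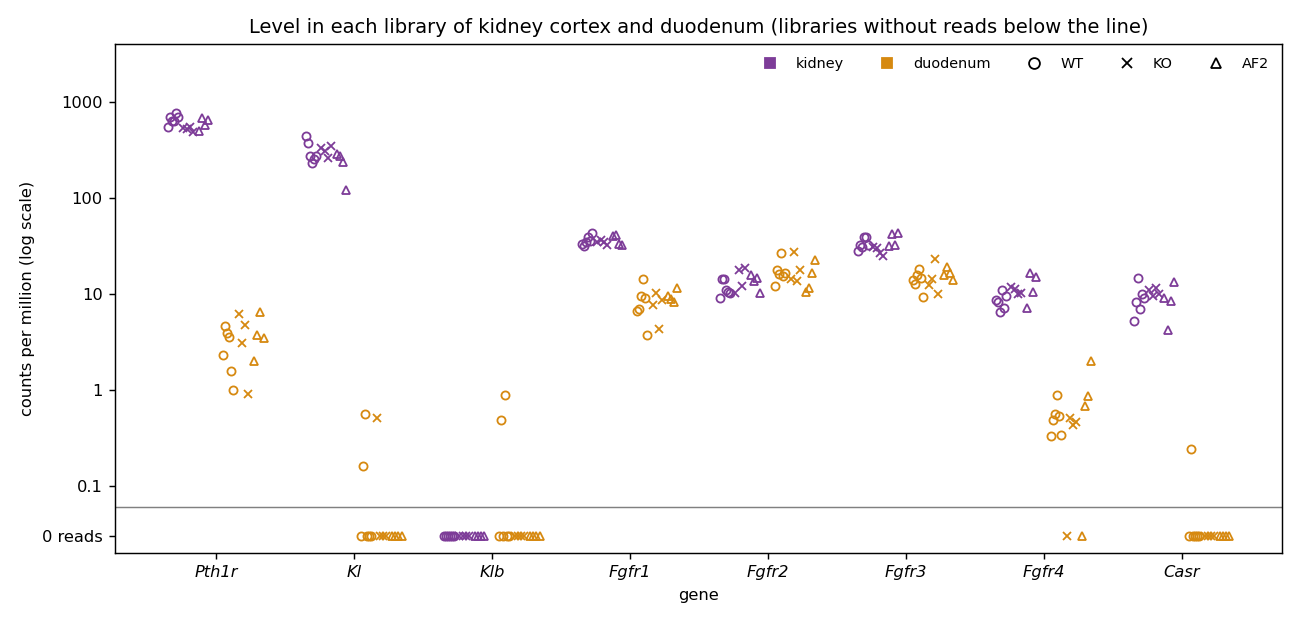
Level of the 8 genes in all 28 libraries, in CPM on a log axis, with kidney cortex left and duodenum right of each gene name; libraries with 0 reads are drawn under the line. Pth1r, Kl and Casr are far apart between tissues, Fgfr2 is the gene whose tissues overlap most, and Klb has reads in 2 duodenum libraries.

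In duodenum, genotype was called for 0 of 4 tested members in each comparison. The share of all 13302 genes called was 0.0226% in KO and 0.0677% in AF2 against WT, and 0.015% in AF2 against KO. Fold changes on the log2 scale ran from -0.09 (Fgfr1) to 0.36 (Pth1r) for KO and from -0.20 (Fgfr2) to 0.45 (Pth1r) for AF2 against WT, with the smallest adjusted p at 0.757. Whether genotype acted differently in the 2 tissues was tested as an interaction. Of the 4 members tested in both tissues 0 were called by edgeR for KO (0.0535% of 14944 genes) and 0 for AF2 (0.381%), also at an unadjusted p under 0.05. Kl, Fgfr4 and Casr had 4, 23 and 3 reads in all duodenum libraries together, so no interaction is read for them. For Pth1r the KO effect in kidney minus that in duodenum was -0.57 ± 0.43 (adjusted p = 0.795), with 153 Pth1r reads in duodenum in all.

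The mix of FGF receptors differed in make-up between the tissues. In WT kidney Fgfr1 took 40.2 ± 3.03% of the reads of the 4 receptor genes (SD, n = 6), Fgfr3 37.4 ± 2.97%, Fgfr2 12.9 ± 2.76% and Fgfr4 9.48 ± 1.51%. In WT duodenum Fgfr2 led with 43.4 ± 6.91%, followed by Fgfr3 at 35.4 ± 4.54%, Fgfr1 at 19.9 ± 4.22% and Fgfr4 at 1.26 ± 0.174%. In AF2 duodenum (n = 4) Fgfr3 had the larger mean, 39.8 ± 8.56% beside 35.5 ± 7.93% for Fgfr2. The ranges of the 2 tissues did not meet for Fgfr1 and Fgfr2 in WT, while those of Fgfr3 did. In CPM the WT groups of the 2 tissues did not overlap for 48.9% of all genes tested. Fgfr4 had 12 reads in all of WT duodenum, too few for its share to be compared. Among kidney genotypes the shares of Fgfr3 were 31.9 ± 2.73% in KO (n = 4) and 37.3 ± 4.12% in AF2 (n = 4), within the scale of the spread. The shares are a description and were not tested.

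**Figure D4:**
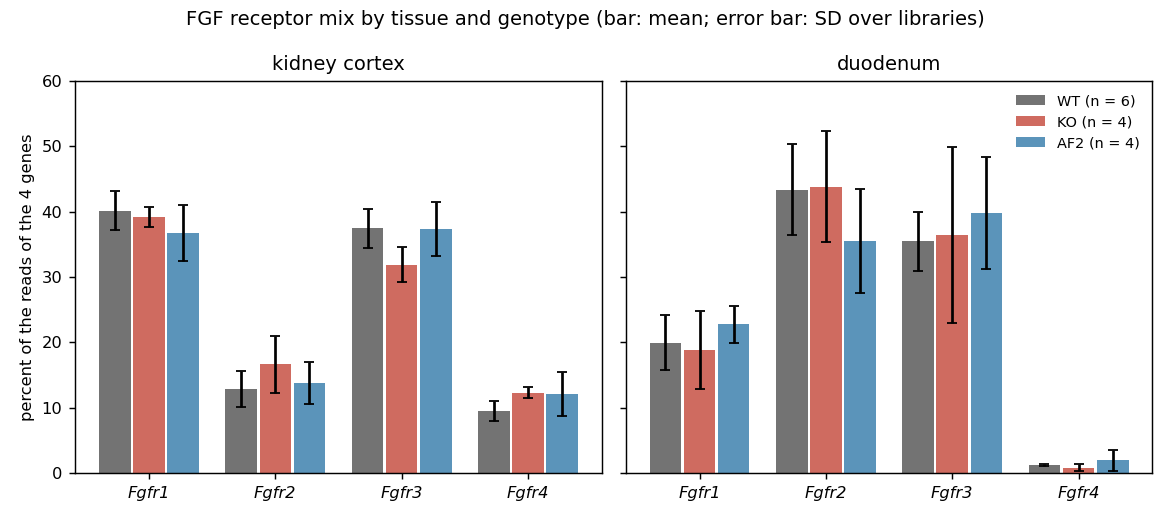
Share of each FGF receptor gene among the reads of the 4 genes, in percent, as mean and SD over libraries for WT (n = 6), KO (n = 4) and AF2 (n = 4). Fgfr1 and Fgfr3 lead in kidney cortex (40.2% and 37.4% in WT). In duodenum Fgfr2 leads in WT (43.4%) and KO (43.8%), and Fgfr3 in AF2 (39.8% beside 35.5% for Fgfr2).

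Around the receptors, 10 lists of ligands, partners and outputs held 164 genes, of which 131 were tested in kidney, 124 of them beside the 7 members. Of the 124, 2 were called higher and 5 lower between KO and WT, 5 and 8 between AF2 and WT, and 1 and 2 between AF2 and KO. The calls against WT include Cyp27b1, which entered the fit through mutant counts, and Cyp24a1, Etv1 and Etv5, which entered through WT counts. Entry fixed the direction of these genes, so their calls are not read as a result of the lists. Over all genes the shares called higher and lower were 0.289% and 0.555% for KO with WT, 1.08% and 1.63% for AF2 with WT, and 0.2% and 0.133% for AF2 with KO. The median log2 fold change of the 124 was -0.04 for KO and -0.07 for AF2 against WT.

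Ligands were scarce. Pthlh, the PTH-related peptide, and Fgf15 had 0 reads in all kidney libraries. Of 18 FGF ligands 2 were tested in kidney, Fgf1, a broad ligand of all FGF receptors, at 113 ± 13.2 CPM and Fgf9 at 38.0 ± 3.35 CPM in WT (SD, n = 6), and 0 were called by edgeR between genotypes in kidney, also at an unadjusted p under 0.05. Among the klotho family and the enzymes that shed klotho, 6 of 7 were tested in kidney, Kl and 5 others, and 0 were called between genotypes.

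Downstream of Pth1r, 32 G protein, adenylyl cyclase, kinase and phosphodiesterase genes were tested. None was called between KO and WT (5 of 32 at an unadjusted p under 0.05), and 2 were higher in AF2 than in WT, both phosphodiesterases that break down cyclic AMP. Pde4b stood at 76.1, 58.4, 56.2 and 76.1 CPM in AF2, above WT (30.0 to 38.6, median 32.7) and KO (38.6, 41.6, 38.1 and 49.9). Its log2 fold change was 1.01 ± 0.13 against WT (adjusted p = 9.72e-06) and 0.67 ± 0.15 against KO (adjusted p = 0.0310). Pde4d rose by 0.57 ± 0.12 in AF2 against WT (adjusted p = 0.00595), from 55.0 ± 6.20 to 81.3 ± 11.4 CPM. For KO against WT the values were 0.34 ± 0.13 for Pde4b (adjusted p = 0.317) and 0.35 ± 0.12 for Pde4d (adjusted p = 0.223).
The Pde4b call against KO was lost in 5 single-library omissions, those of AF2 1, AF2 4, KO 1, KO 2 and KO 3 (adjusted p 0.0684 to 0.0995), with only the groups compared (0.0816), with a replicate block (0.0592) and with the run as a term (0.900), which also ended that of Pde4d (0.280). With the run as a term 1 gene of all tested was called between AF2 and KO, beside 45 without it. AF2 and KO are then linked only through the WT pairs of their runs. The loss was shared by nearly all calls of that comparison and does not speak for Pde4b alone. Podocyte marker sums moved with AF2 in the same libraries (361 to 463 CPM beside 233 to 302 in WT), and their part in the Pde4b and Pde4d differences was not tested.

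Of 16 scaffold and desensitisation genes tested, 1 was called lower in KO and, in AF2, 1 was called higher and 1 lower, all against WT. The PDZ scaffold Slc9a3r1 (NHERF1), which tethers PTH1R and the phosphate transporter, stood at 56.0, 62.1, 60.9 and 61.9 CPM in AF2 and 64.4 to 139 (median 83.3) in WT, a log2 fold change of -0.62 ± 0.15 (adjusted p = 0.0230). The KO value was -0.53 ± 0.15 (adjusted p = 0.118). A related scaffold, Pdzd3, was lower in KO by -0.57 ± 0.14 on the log2 scale (adjusted p = 0.0367), and AF2 gave -0.45 ± 0.14 (adjusted p = 0.0738). Ramp3, a receptor activity modifying protein that can escort the calcium-sensing receptor, rose by 0.66 ± 0.18 in AF2 (adjusted p = 0.0429), where AF2 4 stood at 38.3 CPM beside 20.1 to 24.8 in the other 3.
These calls were near the threshold. That of Slc9a3r1 was lost without WT 2 or any 1 AF2 library (adjusted p 0.0546 to 0.0816). Pdzd3 was lost in KO without any 1 of WT 3, WT 4, WT 5, WT 6, KO 2, KO 3 or KO 4 (0.0520 to 0.146), and Ramp3 without any 1 of 11 libraries, reaching 0.328 without AF2 4. With the run as a term Slc9a3r1 was -0.28 (adjusted p = 0.537), Pdzd3 in KO -0.54 (0.342) and Ramp3 0.64 (0.333). The Ramp3 call was also lost with limma-voom (0.0513), with only the groups compared (0.0799) and with a replicate block (0.132), and that of Pdzd3 in KO with the block (0.230). Some calls were gained. Pdzd3 in AF2 was called in 4 alternatives, DESeq2 (0.0410), the run as a term (0.0403), no filter (0.0479) and without AF2 4 (0.0133). Slc9a3r1 in KO was called in 2, with no filter (0.00943) and without WT 6 (0.0396).

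Of 15 FGF receptors and cofactors tested, 4 members and 11 others, 0 were called in KO and 2 were lower in AF2 than in WT. Flrt1, a membrane protein that binds FGF receptors, stood at 88.7, 95.8, 111 and 104 CPM in AF2 and 146 to 161 in KO, with WT at 104 to 175 (median 150). Its log2 fold change was -0.57 ± 0.12 against WT (adjusted p = 0.00565) and -0.61 ± 0.13 against KO (adjusted p = 0.0295). The heparan sulfate proteoglycan Gpc4 was lower by -0.68 ± 0.16 on the log2 scale in AF2 against WT (adjusted p = 0.0175), and KO gave -0.52 ± 0.16 (adjusted p = 0.148). Flrt1 lost its call against KO without any KO library or AF2 1 or AF2 2 (adjusted p 0.0636 to 0.0938), and Gpc4 lost its call without AF2 1 (0.0830) or AF2 4 (0.0561). With the run as a term Flrt1 against KO was -0.40 (0.909) and Gpc4 -0.51 (0.314). That term left 1 gene called between AF2 and KO, as given for Pde4b. Gpc4 in KO was called in 3 alternatives, with no filter (0.0326), with only the groups compared (0.0415) and without AF2 4 (0.0417).

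None of the 24 adaptor and ERK cascade genes tested was called between genotypes in kidney. At an unadjusted p under 0.05 there were 1, 2 and 4 of 24 for the KO-WT, AF2-WT and AF2-KO pairs. Among 12 feedback and early target genes of that cascade 2 were lower in each mutant, the ETS factors Etv1 and Etv5. Both passed the filter on low counts through WT, which fixed their direction. Etv1 stood at 12.3 to 25.3 CPM in WT (median 21.6) and at 0.295 to 3.60 in KO and 0.364 to 2.80 in AF2, with log2 fold changes of -3.71 ± 0.50 and -3.91 ± 0.51 (adjusted p = 0.000476 and 0.000123). Etv5 gave -2.04 ± 0.41 in KO and -2.36 ± 0.42 in AF2 (adjusted p = 0.00870 and 0.000754), with 2 to 8 reads per mutant library. Its KO call was lost without KO 3 (adjusted p = 0.0548) or KO 4 (0.0522). With the run as a term the AF2 value of Etv5 was -1.55 (adjusted p = 0.192).

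Around Casr, 13 partners and outputs were tested beside Casr itself. Slc12a1, the sodium, potassium and chloride cotransporter of the thick ascending limb, was higher in KO by 0.45 ± 0.11 (adjusted p = 0.0356) and in AF2 by 0.43 ± 0.11 (adjusted p = 0.0203) on the log2 scale, with WT at 691 to 1014 CPM (median 849.9). Thick ascending limb markers, of which it is one, summed to 4443 to 4910 CPM in AF2, 3976 to 4848 in KO and 3236 to 4265 in WT. Their part in it was not tested. Cldn2, a claudin that lets calcium and sodium pass between proximal tubule cells, was lower in AF2 than in WT by -0.62 ± 0.11 (adjusted p = 0.000859), with 206, 213, 185 and 256 CPM against 308 to 359, and KO gave -0.41 ± 0.11 (adjusted p = 0.0739). That KO value was called in 7 alternatives, among them DESeq2 (0.0262), limma-voom (0.0478) and without AF2 4 (0.0160). Ramp3, on this list too, is given above. With the run as a term Slc12a1 gave 0.49 for each mutant (adjusted p = 0.296 and 0.122), and among single omissions it lost its KO call without any 1 of WT 2, WT 3, WT 4, WT 5, KO 2, KO 3, KO 4 or AF2 1 (adjusted p 0.0529 to 0.239) and its AF2 call without any 1 of WT 3, WT 5, AF2 1 or AF2 3 (0.0508 to 0.0834).

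Of 12 tubular outputs of PTH and FGF23 tested, 3 were called in each mutant against WT. Of these, Cyp27b1 passed the filter on low counts through the mutants and Cyp24a1 through WT. That fixed their direction, so only S100g, well read in every group, counts as a call. Vdr itself is altered in both mutants, and the part of PTH or FGF23 in these calls was not tested. The vitamin D 1α-hydroxylase Cyp27b1, which PTH raises and FGF23 lowers, was called higher in both mutants, by 5.93 ± 0.78 in KO and 6.88 ± 0.78 in AF2 on the log2 scale (adjusted p = 0.00445 and 0.000473), from 27 reads in all of WT. It stood at 0.73 to 3.46 CPM in WT, 48.4, 90.1, 155 and 166 in KO and 327, 294, 248 and 21.5 in AF2 1 to AF2 4. The catabolic enzyme Cyp24a1 had 233 reads in WT, 1 in KO and 2 in AF2, and S100g, the calbindin-D9k gene, was lower by -3.12 ± 0.31 in KO and -3.92 ± 0.32 in AF2 (adjusted p = 0.000376 and 2.70e-05). With limma-voom the Cyp27b1 calls were lost (adjusted p = 0.371 and 0.219), and so they were with the run as a term (0.257 and 0.0726). Calb1, calbindin-D28k of the distal tubule, was lower in AF2 than in KO by -0.69 ± 0.13 (adjusted p = 0.0106), with 287 to 328 CPM beside 399 to 684. That call was lost without KO 4 (adjusted p = 0.0977) and with the run as a term (0.8996), which left 1 gene called in that comparison. The library AF2 4, lowest in Kl and in the outer stripe marker sum, was also the lowest AF2 library in Cyp27b1.

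**Figure D5:**
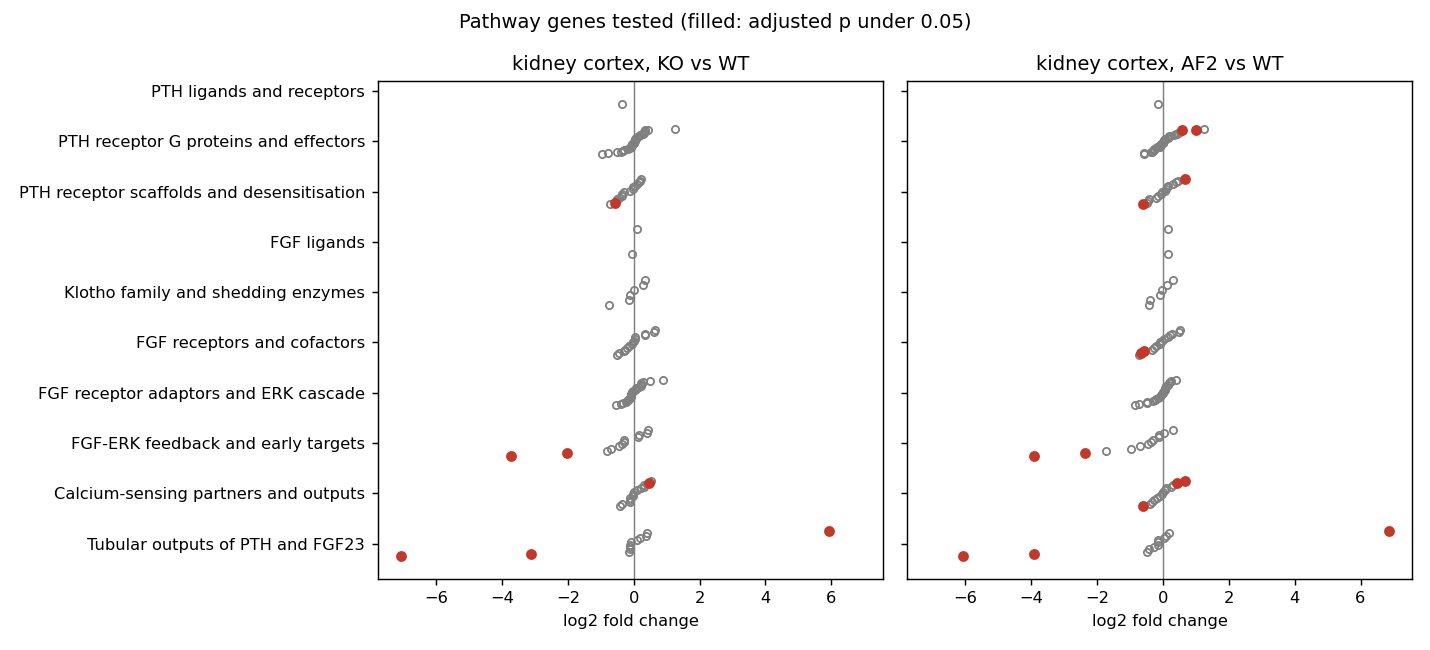
Log2 fold change of every tested gene of the 10 lists in kidney cortex, KO with WT on the left and AF2 with WT on the right; filled points passed an adjusted p under 0.05. The lists of ligands, klotho family genes and ERK cascade genes hold no filled point, and the points farthest right are Cyp27b1, at 5.93 for KO and 6.88 for AF2.

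As a description of likeness, the 3 genes whose log2 CPM followed each member most closely over the 14 kidney libraries were taken from 11983 genes, with depth and composition shared by all genes of a library. Pth1r was followed by Gmppa (r = 0.93, rho = 0.89), Slc22a6, a proximal tubule organic anion transporter (r = 0.88, rho = 0.89), and Tmbim4 (r = 0.87, rho = 0.87). Without WT 5 and KO 4, the libraries farthest from the Pth1r median, r was 0.90, 0.80 and 0.81. Kl was followed by Alg10b, Prcp and Gatm, the enzyme of creatine synthesis in the proximal tubule, with r from 0.95 to 0.96 and rho from 0.73 to 0.82. Without AF2 4 and WT 1 those r fell to between 0.75 and 0.81, so that part of the likeness rested on these libraries. The best r of the other members lay between 0.85 for Fgfr4 (Cacnb1) and 0.92 for Fgfr2 (Cdc42bpb). Highest values out of so many genes are high by selection and carry no p-value.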

How the data were processed

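RNA of 28 libraries, 14 of duodenum and 14 of kidney cortex, was measured. Per the labels' protocols, total RNA was extracted with TRIzol and libraries were made with a QuantSeq kit, which reads 3' ends. The authors deposited raw counts per gene symbol, 1 table per tissue, without normalization, per the file headers. The submitters' processing notes name mm10 and limma 3.34.9, and nothing in the labels or headers names the aligner, the counter, its filters or its use of strand. As all values of the deposited tables were even, reads are counts divided by 2, while tests used the counts as deposited. Sample titles gave genotype, and library codes matched columns to samples. No 2 libraries of a group were identical or within sampling noise, and replicate numbers were not taken as pairs, since not every same-number correlation exceeded 0.1.

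Per tissue, edgeR 4.0.16 (R 4.3.3) fitted all 14 libraries with genotype as the only term, after filterByExpr and TMM scaling, with robust two-sided quasi-likelihood tests and Benjamini-Hochberg adjustment over all genes tested. All adjusted p-values are from it unless another tool is named. A joint fit of 27271 shared symbols (14944 tested) gave the tissue comparisons. Errors of fold changes (SE) were taken as the fold change on the log2 scale divided by the root of its F statistic, and intervals are at 95%. Floors are 3 reads over the pooled group. Alternatives were RLE size factors, no filter, DESeq2 1.42.0, limma-voom (limma 3.58.1), halved counts, only the groups compared, a replicate block, a term for the run of library codes, and each library left out. The steps were tested on simulated data. Gene lists were fixed in writing, and up to 4 called genes per list and comparison are named, with all 8 members and Vdr. The members and lists were chosen with earlier results of these data known. Positions came from RefSeq GRCm38.p6 and GENCODE vM21, where 97.27% of kidney symbols matched.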

Additional observations from a re-analysis of the deposited data

How the results depend on the processing

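Members called stayed at 0 in every alternative for kidney AF2 with WT, kidney AF2 with KO, the 3 duodenum comparisons and both interactions. For kidney KO with WT it ran from 0 to 1 when single libraries were left out (Pth1r, without AF2 replicate 4) and was 0 otherwise, and for WT kidney with WT duodenum it was 6 or 7, of which Kl, Casr and Fgfr4 entered through kidney counts. In the interactions too, only the 4 members tested in both tissues carry information. The tissue comparison was not run with the library code run as a term. Counts of all genes called moved by more than 1.5 times, from 114 to between 25 and 252 (kidney KO with WT), 366 to 121 and 590 (kidney AF2 with WT), 45 to 1 and 193 (kidney AF2 with KO), 3 to 1 and 229 (duodenum KO with WT), 9 to 0 and 240 (duodenum AF2 with WT), 2 to 1 and 106 (duodenum AF2 with KO), 8 to 0 and 67 (KO interaction) and 57 to 19 and 187 (AF2 interaction). Values that were not called changed sign, and the causes were not tested. Among them were large but imprecise interactions of genes with few duodenum reads. These were 2.71 ± 1.46 (KO) and 2.46 ± 1.38 (AF2) for Casr and 2.22 ± 1.75 (AF2) for Kl. Leaving out single libraries, the log2 fold change ran in kidney KO with WT from -0.063 to 0.15 (Kl), -0.039 to 0.10 (Flrt1) and -0.043 to 0.061 (Ramp3). In kidney AF2 with WT it ran from -0.32 to 0.18 (Casr) and -0.044 to 0.068 (Fgfr1), and in kidney AF2 with KO from -0.80 to 0.42 (Etv1), -0.26 to 0.026 (Fgfr2), -0.00284 to 0.20 (Pdzd3) and -0.063 to 0.079 (Slc12a1). In duodenum KO with WT it ran from -0.25 to 0.13 (Fgfr1), -0.18 to 0.24 (Fgfr2) and -0.20 to 0.25 (Fgfr3), and in AF2 with KO from -0.021 to 0.43 (Fgfr3) and -0.25 to 0.44 (Pth1r). The KO interaction ran from -0.16 to 0.21 (Fgfr1) and -0.37 to 2.67 (Kl), and that of AF2 from -0.042 to 2.69 (Casr), -0.15 to 0.030 (Fgfr3) and -0.59 to 0.43 (Fgfr4). With counts halved, kidney KO with WT gave -0.00888 for Kl. With limma-voom, kidney AF2 with KO gave 0.21 for Etv1, duodenum KO with WT -0.026 for Pth1r and 0.020 for Fgfr1, the KO interaction -0.11 for Kl and -0.016 for Fgfr1, and that of AF2 0.25 for Fgfr4. With the library code run as a term, kidney KO with WT gave -0.040 for Casr and -0.17 for Flrt1, kidney AF2 with WT -0.10 for Fgfr1, and kidney AF2 with KO -0.016 for Pth1r, -0.00126 for Fgfr1, 0.16 for Fgfr2, 0.72 for Etv5, -0.14 for Pdzd3 and 0.063 for Slc9a3r1. With the same term, duodenum KO with WT gave -0.00252 for Pth1r, -0.23 for Fgfr2 and -0.17 for Fgfr3, duodenum AF2 with KO 0.16 for Fgfr2, the KO interaction -0.029 for Casr, and that of AF2 -0.21 for Kl and -0.13 for Casr.

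Correlations of same-numbered libraries, as deviations from group means, ran from -0.04 to 0.17 within kidney and from -0.20 to 0.10 within duodenum. Between kidney and duodenum libraries of the same genotype and number they ran from -0.08 to 0.10, with 12 of 14 above 0 (all of WT and KO), and 8 of 14 kidney libraries correlated best with their own number. Not every one exceeded 0.1, so the numbers were not taken as pairs. In the joint fit the block moved the genes called from 8 to 6 (KO interaction) and 57 to 36 (AF2 interaction), and the members called not at all. A replicate block moved the genes called from 114 to 79, 366 to 338 and 45 to 52 in the 3 kidney comparisons. Only WT has the numbers 5 and 6, so within a tissue the block takes WT 5 and WT 6 out of the comparisons with WT. With the replicate block the Pth1r value for KO with WT was -0.26 (adjusted p = 0.484). WT 5 and WT 6 were the WT kidney libraries highest in Pth1r (762 and 702 CPM), so this value cannot be told apart from their omission. The block turned the sign of Kl in kidney KO with WT (-0.019), Casr in kidney AF2 with WT (0.00849), Pth1r (-0.036) and Fgfr3 (-0.050) in duodenum KO with WT, and Kl in the KO interaction (-0.056). It ended the calls of Cyp27b1, Pdzd3 and Slc12a1 in KO with WT, Ramp3 and Slc12a1 in AF2 with WT, and Pde4b in AF2 with KO, and of no other gene named (adjusted p 0.0592 to 0.230). Depth limits Casr, Fgfr2 and Fgfr4 to fewer than 50 reads in every kidney library.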
